A study of Mus musculus with 4 samples.

Results

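The hnRNP and SR proteins are the main RNA-binding regulators of pre-mRNA splicing. The read counts of their genes were followed here in a plasma cell tumour line with and without depletion of the elongation factor Ell2. Members were all genes whose symbol starts with Hnrnp, Hnrp, Srsf or Sfrs, together with the polypyrimidine tract-binding genes Ptbp1, Ptbp2 and Rod1 (the older symbol of Ptbp3) and the Tra2 genes Tra2a and Tra2b. They came to 38 of 22722 genes counted, 23 of hnRNP type and 15 of SR type. After the filter on low counts 37 of them were tested. Srsf13b, an SR gene, had 4 and 0 reads in shGFP cells and 3 and 0 after Ell2 depletion. It fell below the filter (minimum count 10, total 15) and was not tested. The symbol Srsf12 is ambiguous, because RefSeq gives it both as a current symbol and as an older symbol of Srek1, and Srsf13b is in turn an older symbol of the current Srsf12. The gene listed as Srsf12 may therefore be Srek1, and it is described by its listed symbol and without a length.

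The RNA came from MPC11, an antibody-secreting plasma cell tumour line of mouse, and the series was designed to examine splicing after loss of Ell2. Both groups were transduced with pLKO.1 lentivirus and selected in puromycin: 2 cultures expressed a hairpin against GFP (shGFP, the control, a sequence that mouse cells lack) and 2 a single hairpin against Ell2 (Ell2-KD, shELL2-1C7). Virus was left on for 18 h, selection lasted 72 h and expansion a further 72 h. The samples are called biological replicates without a statement that each was transduced separately, so the p-values reflect only how these samples vary, which may be technical. With 1 hairpin per target, an effect of Ell2 loss and of the hairpin itself cannot be told apart. Libraries held 3496471 to 13914488 counts, and both the deepest (replicate 1) and the shallowest (replicate 2) were Ell2-KD.

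hnRNP proteins coat nascent transcripts and often repress the use of nearby splice sites, whereas SR proteins bind exonic enhancers through their RNA recognition motifs and recruit the spliceosome through arginine-serine domains that are phosphorylated by SR kinases. In the B lineage these proteins are known for exon choice in Ptprc (CD45) and for the change from membrane to secreted immunoglobulin mRNA, and Hnrpll is known as a splicing regulator that rises in plasma cells. Many SR and hnRNP genes also hold poison exons, whose inclusion sends the transcript to nonsense-mediated decay. Counts per gene sum over isoforms, so the values below are total transcript levels and say nothing of exon use.

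The check of the labels came first. Ell2 stood at 938 and 996 CPM (library-size and TMM-normalised reads) in shGFP cells versus 87.8 and 115 CPM after Ell2 depletion, which is -3.25 on the log2 scale (edgeR, adjusted p = 0.00032). The plasma cell identity of the line was checked on 6 markers, all of which were counted in every library, with summed levels (CPM without TMM scaling, as for the lists below) of 14498 to 19148 CPM in shGFP cells versus 12272 to 15766 after Ell2 depletion. All 6 had a negative log2 change, with a median of -0.34; edgeR called 0 and DESeq2 1 of them. Tnfrsf17, the BCMA receptor, went from 159 and 126 reads to 18 and 1. Ms4a1 (CD20), a B cell marker, stood at 378 and 348 CPM versus 836 and 941 CPM (adjusted p = 0.086 by edgeR and 0.0065 by DESeq2, which called it). The part of these marker differences in the members' values was not tested. Cd79b was also abundant, while Pax5 had at most 30 reads in a library and 0 in both depleted libraries. Markers of T cells (5 genes), myeloid cells (4), fibroblasts (3) and neurons (4) summed to at most 4.67 CPM per list in any library. In RNA of a whole culture, fewer cells of a type and less RNA per cell cannot be told apart.

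The upstream sequences of the 2 members with the highest level per length in each class are shown to set these abundant genes beside one another. Each is the 250 bases before the first listed start site in RefSeq, build GRCm38.p6, read 5′ to 3′ on the gene's strand: Hnrnpa2b1 at chr6:51469895-51470144 (minus strand), Hnrnpab at chr11:51606882-51607131 (minus strand), Srsf2 at chr11:116853095-116853344 (minus strand) and Srsf1 at chr11:88047123-88047372 (plus strand). Capitals mark exact matches, on either strand, to the motifs searched: the CCAAT box (CCAAT), the GC box (GGGCGG), the TATA box (TATAAA), the core of ETS sites (CCGGAAG), the NRF1 site and a CGCG palindrome. Matches may overlap one another.
Hnrnpa2b1: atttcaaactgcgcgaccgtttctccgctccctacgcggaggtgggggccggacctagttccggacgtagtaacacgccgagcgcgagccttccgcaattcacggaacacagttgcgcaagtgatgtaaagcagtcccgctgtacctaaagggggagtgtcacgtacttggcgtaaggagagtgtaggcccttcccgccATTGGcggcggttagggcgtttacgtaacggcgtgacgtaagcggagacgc
Hnrnpab: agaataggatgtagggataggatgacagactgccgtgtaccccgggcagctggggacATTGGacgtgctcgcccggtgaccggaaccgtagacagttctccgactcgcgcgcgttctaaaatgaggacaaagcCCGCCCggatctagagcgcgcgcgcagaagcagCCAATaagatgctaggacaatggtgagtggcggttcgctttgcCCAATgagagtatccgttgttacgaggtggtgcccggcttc
Srsf2: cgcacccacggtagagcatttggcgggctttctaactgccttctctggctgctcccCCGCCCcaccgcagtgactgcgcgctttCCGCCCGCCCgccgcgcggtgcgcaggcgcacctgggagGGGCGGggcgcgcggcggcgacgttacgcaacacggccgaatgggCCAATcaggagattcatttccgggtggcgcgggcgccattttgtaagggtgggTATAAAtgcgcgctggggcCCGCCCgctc
Srsf1: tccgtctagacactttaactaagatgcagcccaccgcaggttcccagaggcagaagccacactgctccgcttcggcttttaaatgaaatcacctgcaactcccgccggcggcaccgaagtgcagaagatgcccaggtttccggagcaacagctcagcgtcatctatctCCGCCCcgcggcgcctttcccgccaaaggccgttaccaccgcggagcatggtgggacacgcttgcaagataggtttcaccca

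An upstream sequence was at hand for 33 of the 38 members, 20 hnRNP and 13 SR, among the latter that of the untested Srsf13b. A CCAAT box was found in 13 of 20 hnRNP sequences (65.0%) and 4 of 13 SR sequences (30.8%), beside 37.7% of 8543 tested genes with such a sequence. GC boxes were found in 14 of 20 hnRNP (70.0%) and 12 of 13 SR sequences (92.3%), beside 61.0%. The TATA box occurred in 1 hnRNP (Hnrnpm) and 2 SR sequences (Srsf2 and Srsf3), beside 5.79% of tested genes. The ETS core was in 2 hnRNP and 4 SR sequences, beside 15.5%, and the NRF1 site and the palindrome were in none of the 33, beside 1.87% and 0.972%. The median number of CG dinucleotides was 23 in both classes, beside 16 in the tested genes, and the median GC content was 60.6% in hnRNP and 65.2% in SR sequences, beside 60.4%. These matches are descriptions of letters in a window, and no binding was measured.

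As a class the hnRNP genes took 0.691% and 0.646% of all counts in the shGFP libraries (replicate 1, then 2), against 0.691% and 0.712% in the Ell2-KD libraries. The depleted libraries lay just above the controls, with means of 0.701% ± 0.014 (SD, n = 2) and 0.668% ± 0.031 (exact permutation test, two-sided, p = 0.333, the smallest p that 2 against 2 libraries allow). With 1 library left out the difference of 0.033 percentage points ran from 0.011 (without shGFP replicate 2) to 0.055 (without shGFP replicate 1). SR genes took 0.342% and 0.313% in shGFP cells versus 0.408% and 0.329% after Ell2 depletion (exact permutation test, two-sided, p = 0.667). The groups overlapped for SR genes, and without Ell2-KD replicate 1 the difference of 0.041 percentage points came to 0.001. A few genes carried each class: Hnrnpu, Hnrnpab and Hnrnpa2b1 held 46.3% of hnRNP reads, and Srsf1, Srsf6 and Srsf2 held 51.9% of SR reads.

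No member of either class passed the test. The quasi-likelihood F-test of edgeR, adjusted by Benjamini-Hochberg over 11027 genes, called 0 of 23 hnRNP and 0 of 14 SR genes. Of all genes tested it called 0.0453%, 0.00907% higher and 0.0363% lower after depletion. DESeq2 also called 0 members. At an unadjusted p under 0.05 both tools gave 0 members, where edgeR gave 5.82% of all genes (2.57% higher, 3.26% lower). The lowest edgeR adjusted p was 0.959 among hnRNP genes (Hnrnph3) and 0.871 among SR genes (Srsf7). The log2 change was above 0 in 19 hnRNP genes and below it in 4 (median 0.09). Of SR genes 9 were positive and 5 negative, with a median of 0.17. Over all genes tested 49.9% were positive and the median was -0.0015. The SR median was 0.09 without shGFP replicate 1.

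Both depleted libraries lay above both controls for 6 of 23 hnRNP and 5 of 14 SR genes, beside 17.4% of all genes tested. Both lay below for 0 hnRNP and 2 SR genes, beside 18.5%. The hnRNP genes with the depleted libraries on top were Hnrnpc, Hnrnpa1, Hnrnpa3, Hnrnpk, Ptbp1 and Hnrnpul2, and the SR genes were Srsf7, Tra2a, Srsf2, Srsf1 and Srsf5. The SR genes with the depleted libraries below were Srsf11 and Srsf4.

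**Figure D1:**
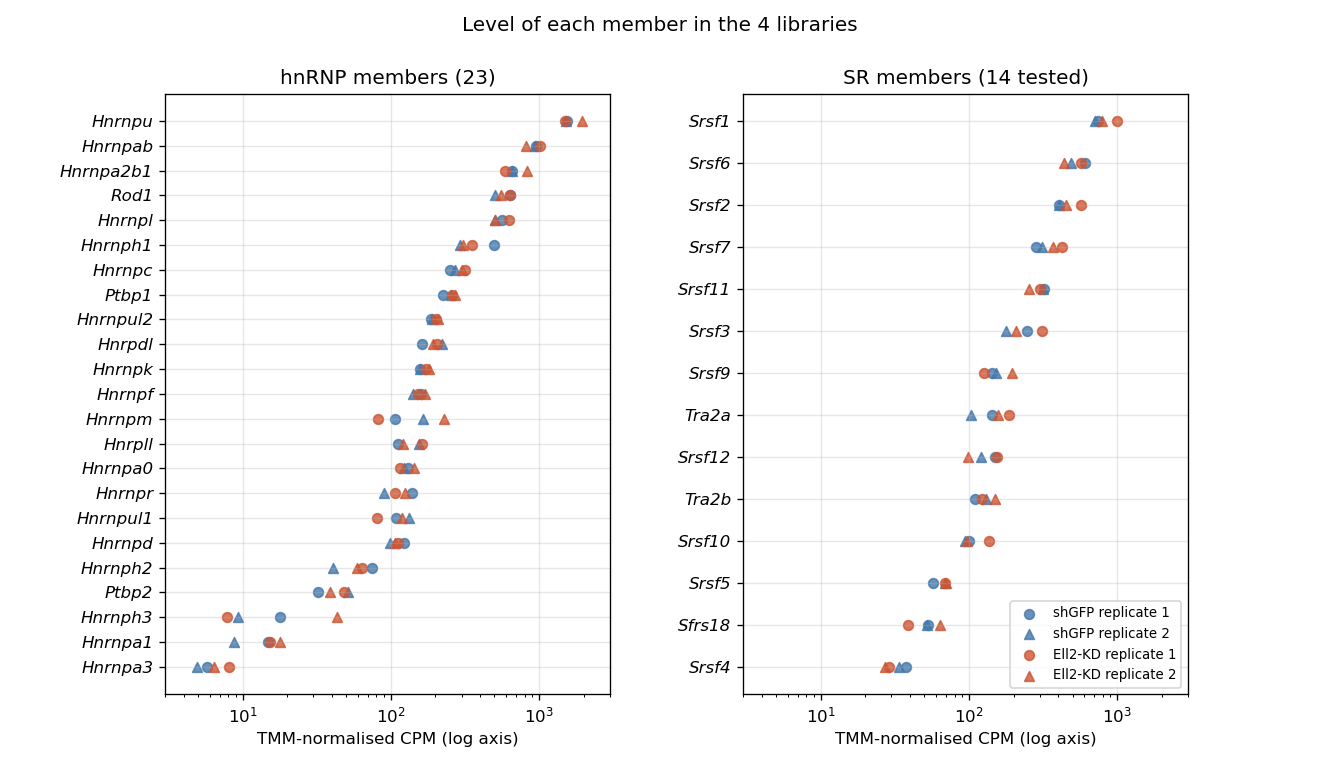
TMM-normalised CPM (log axis) of every tested member, ordered by mean, in shGFP (blue) and Ell2-KD (red) libraries, with circles for replicate 1 and triangles for replicate 2. Most members' 4 points lie close together, and Hnrnph3 and Hnrnpm are the most scattered, with 5.50-fold and 2.77-fold between their lowest and highest library.

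For most members the interval held no change as large as 2-fold. The 95% interval of the log2 change lay inside a 2-fold change in either direction for 19 of 23 hnRNP and 12 of 14 SR genes, 31 in all, beside 30.3% of all genes tested. Members were also more abundant than most genes: their median level was 156 CPM for hnRNP and 151 for SR genes, against 35.8 CPM for all genes tested. The 6 members whose intervals reached a 2-fold change were Hnrnph3, Hnrnpa1, Hnrnpa3, Hnrnpm, Tra2a and Srsf4. With 1 library left out, the number inside fell to between 18 (without shGFP replicate 2) and 23. A p that misses the threshold does not show that levels were equal.

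**Figure D2:**
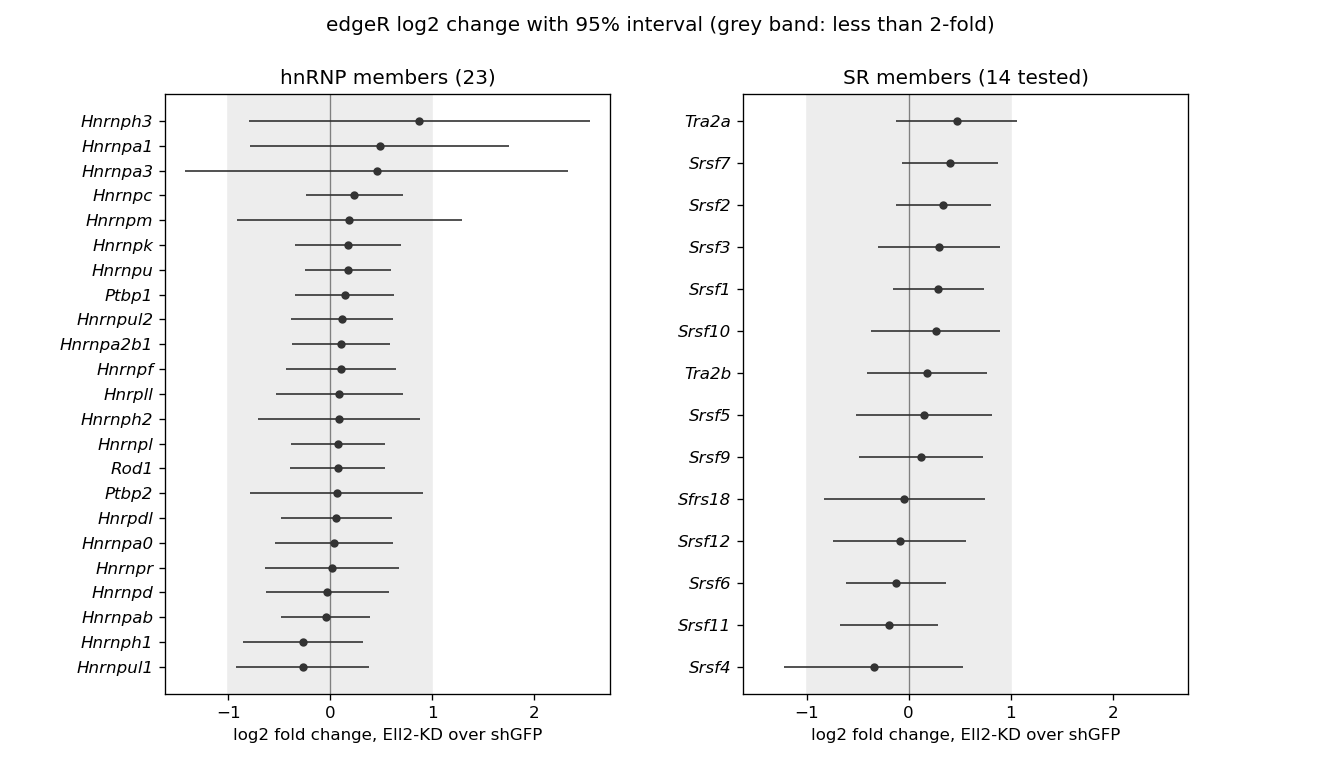
edgeR log2 fold change of Ell2-KD over shGFP for each tested member (points) with its 95% interval (bars), with the range under 2-fold shaded. All intervals include 0, and 6 of 37 reach beyond the shaded band.

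Among the core hnRNP genes, Hnrnpa2b1, which encodes the A2/B1 proteins that package nascent RNA, stood at 655 and 658 CPM in shGFP cells versus 585 and 826 CPM after Ell2 depletion. The controls fell between the 2 depleted libraries (log2 change 0.10, interval -0.38 to 0.59). Hnrnpc, whose protein binds uridine tracts and keeps cryptic exons out of mRNA, stood at 252 and 272 CPM in shGFP cells versus 315 and 302 CPM after Ell2 depletion. Its groups did not overlap, but the log2 change of 0.23 ± 0.21 (SE) did not pass (edgeR adjusted p = 0.967). Hnrnpab stood at 952 and 937 CPM against 1008 and 821 CPM after Ell2 depletion, and its relative Hnrnpd (AUF1), a factor of AU-rich mRNA decay, at 123 and 99.4 against 111 and 106. Both overlapped fully, with log2 changes of -0.05 and -0.03.

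Hnrnpa1, which encodes a repressor of exon inclusion that is abundant in most cells, had 125 and 44 reads in shGFP cells versus 217 and 61 after Ell2 depletion. That is 14.9 and 8.73 CPM against 15.4 and 17.9 CPM. Hnrnpa3, a related A/B-type gene, had 48 and 25 reads against 115 and 22, or 5.72 and 4.96 CPM against 8.16 and 6.44 CPM. The intervals were wide, from -0.78 to 1.75 for Hnrnpa1 and from -1.42 to 2.33 for Hnrnpa3, and both reach past a 2-fold change. The log2 change of Hnrnpa1, 0.48, was 0.15 without shGFP replicate 2 and 0.94 without shGFP replicate 1. Per kilobase of its longest annotated coding transcript, Hnrnpa2b1 was counted 42.2-fold to 83.6-fold above Hnrnpa1 across the 4 libraries. With the union of annotated exons as the length this was 18.2-fold to 36.1-fold.

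Sequence shared with pseudogenes was looked at beside these levels, because reads that match several places may be dropped or split in counting, and their treatment by the authors is not stated in the labels. Of the 31-base windows in the longest coding transcript (GENCODE M21), 49.3% for Hnrnpa1 and 28.5% for Hnrnpa3 also occurred in an annotated pseudogene. Hnrnpf had a share as high, 50.2%, at 64.9 CPM per kilobase, against 7.41 for Hnrnpa1 and 1.23 for Hnrnpa3. Shares of at least 20% were found for 5 of 23 hnRNP genes (also Hnrnph2, 24.0%, and Hnrnpk, 39.6%) and for 2 of 13 SR genes (Srsf5, 36.02%, and Tra2b, 21.0%), beside 4.81% of tested genes. The part of this sharing in the counted levels was not tested, and the values of these 7 genes are uncertain as levels.

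**Figure D3:**
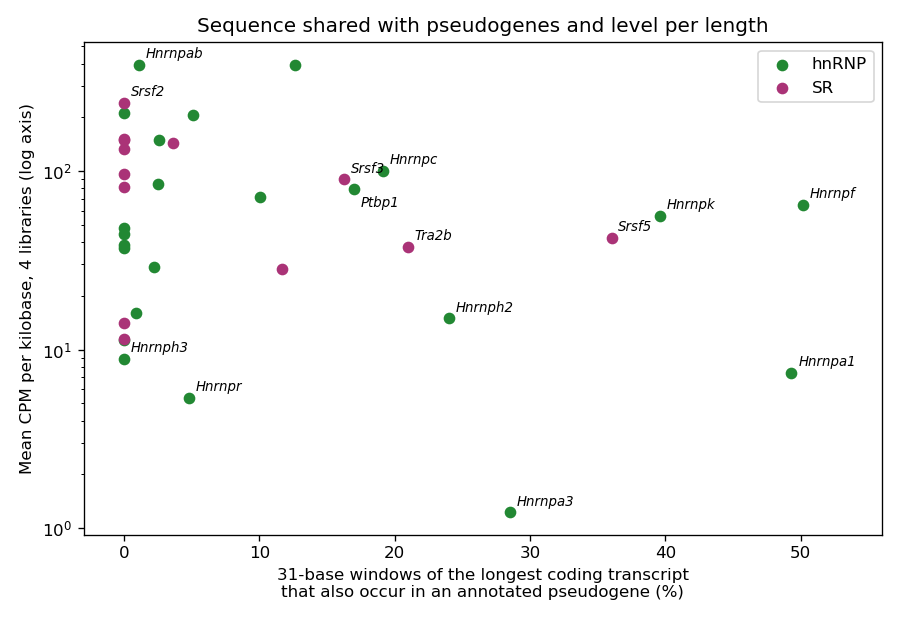
Share of 31-base windows of the longest coding transcript that also occur in an annotated pseudogene (x axis, percent) against the mean level per kilobase over the 4 libraries (y axis, log), for hnRNP (green) and SR (purple) genes with a length. Hnrnpa1 and Hnrnpf lie side by side near 50% on the x axis but at 7.41 and 64.9 CPM per kilobase.

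Hnrnpu, the scaffold attachment factor A that ties RNA to chromatin, was the member with most reads, at 1542 and 1511 CPM in shGFP cells versus 1506 and 1937 CPM after Ell2 depletion. Ell2-KD replicate 2 alone stood apart (log2 change 0.17 ± 0.19 SE, and -0.02 without that library). Its relatives Hnrnpul1 and Hnrnpul2 stood at 109 and 132 against 80.4 and 119 CPM, and at 188 and 191 against 202 and 208 CPM. The log2 changes were -0.27 and 0.11, and neither passed. That of Hnrnpul1 was -0.58 without Ell2-KD replicate 2 and -0.0058 without Ell2-KD replicate 1. Per kilobase, Hnrnpu made up 73.3% to 77.9% of the trio in every library.

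The H and F genes encode proteins that bind G-rich runs near splice and poly(A) sites, and the H genes varied more between libraries than Hnrnpf. The ratio of the highest to the lowest CPM was 1.21 for Hnrnpf, against 1.72 for Hnrnph1, 1.84 for Hnrnph2 and 5.50 for Hnrnph3. Hnrnph1 stood at 499 and 291 CPM in shGFP cells versus 350.5 and 307 CPM after Ell2 depletion, so the 2 controls lay further apart than the group means (log2 change -0.27, and 0.19 without shGFP replicate 1). Hnrnph3 stood at 18.0 and 9.33 CPM in shGFP cells versus 7.87 and 43.3 CPM after Ell2 depletion. Its lowest and highest libraries were both Ell2-KD, and its log2 change of 0.87 became -0.80 without Ell2-KD replicate 2. Hnrnpf (160.4 and 140.3 against 153 and 170.1 CPM) and Hnrnph2 (75.0 and 40.7 against 63.6 and 59.4) overlapped between groups. Hnrnpm, a regulator of exon skipping, showed a like scatter, at 108 and 165 CPM against 82.4 and 228 CPM.

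The pair of hnRNP L paralogs differed in level, and neither passed the test. Hnrnpl, which binds CA repeats and silences variable exons of Ptprc, stood at 563 and 508 CPM in shGFP cells versus 626 and 502 CPM after Ell2 depletion. Hnrpll stood at 112 and 156 CPM against 163 and 121 CPM, with 1 depleted library above both controls and the other between them. The log2 changes were 0.07 (interval -0.39 to 0.54) and 0.09 (interval -0.54 to 0.71). Without Ell2-KD replicate 1 they were -0.09 and -0.14. Per kilobase of transcript Hnrnpl lay 3.79-fold to 5.86-fold above Hnrpll, and Hnrpll made up 14.6% and 20.9% of the pair in shGFP cells versus 18.3% and 17.1% after Ell2 depletion. By the union of annotated exons the ratio was 6.39-fold to 9.87-fold, and Hnrpll made up 9.2% to 13.5% of the pair. No pseudogene held a window of the Hnrpll coding transcript.

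In the polypyrimidine tract-binding family, whose members repress exons flanked by pyrimidine-rich sites, Rod1 (Ptbp3), known from blood cells, and Ptbp1, the widespread member, were both well above Ptbp2. Rod1 stood at 633 and 503 CPM in shGFP cells versus 639 and 556 CPM after Ell2 depletion, Ptbp1 at 225 and 255.8 against 259 and 270.5 CPM. Ptbp2, best known from neurons, stood at 32.2 and 51.4 CPM against 48.2 and 38.6 CPM. Per kilobase, Rod1 was 0.910 to 1.30 times Ptbp1, and their order changed between libraries, while Ptbp2 made up 4.96% to 8.11% of the family. By the union of annotated exons Rod1 lay above Ptbp1 in all 4 libraries, 1.25-fold to 1.78-fold, and Ptbp2 made up 2.59% to 4.42%. An annotated pseudogene held 17.0% of the coding transcript windows of Ptbp1, 2.52% of those of Rod1 and 0% of those of Ptbp2. The part of this sharing in the ratios was not tested. None of the 3 passed, with log2 changes of 0.07, 0.14 and 0.06.

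**Figure D4:**
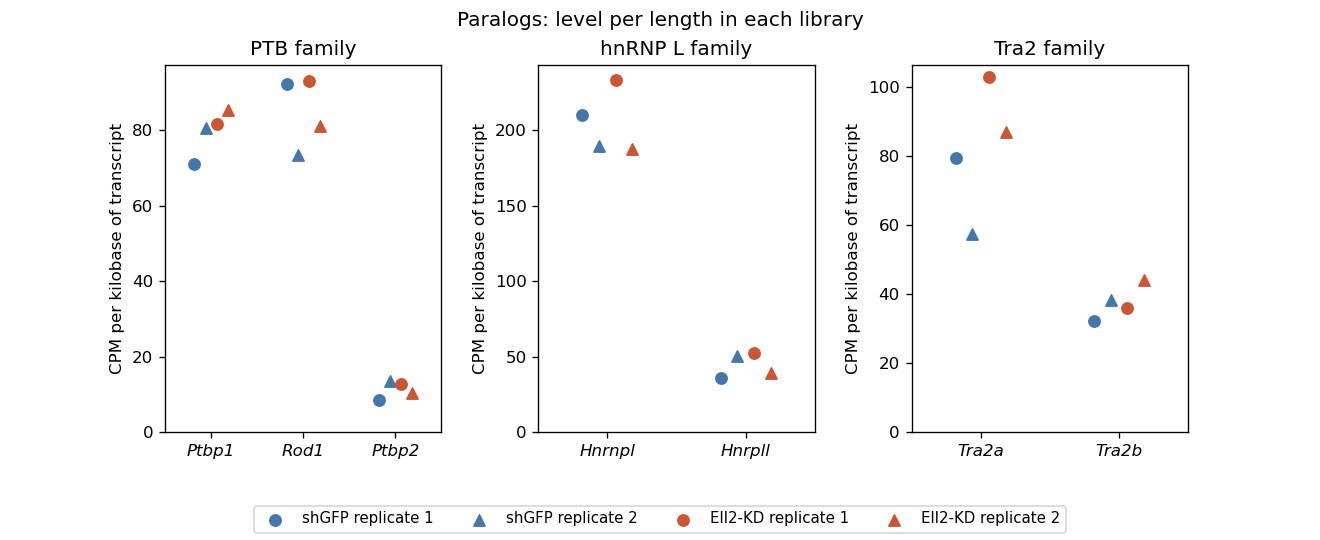
CPM per kilobase of the longest coding transcript for the PTB, hnRNP L and Tra2 paralogs, in shGFP (blue) and Ell2-KD (red) libraries of replicate 1 (circles) and replicate 2 (triangles). Ptbp1 and Rod1 overlap, Ptbp2 lies below both in all 4 libraries, and Hnrpll lies below Hnrnpl.

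The remaining hnRNP genes showed no separation that passed. Hnrnpk, a poly(C)-binding protein, stood at 156 and 157 CPM against 173 and 181 CPM, a small gap with a log2 change of 0.17 ± 0.24 (SE). Hnrpdl, a relative of Hnrnpd, stood at 163 and 220.5 against 206 and 194 CPM, Hnrnpa0 at 130.3 and 123 against 116 and 144 CPM, and Hnrnpr at 139 and 89.9 against 107 and 125 CPM. These 3 overlapped between groups.

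Srsf7, an SR protein with a zinc knuckle, had the lowest p of any member. It stood at 285 and 311 CPM in shGFP cells versus 423 and 367 CPM after Ell2 depletion, and its groups did not overlap. The log2 change was 0.41 ± 0.21 (SE; edgeR adjusted p = 0.871). Its closest relative Srsf3, a regulator of exon inclusion and mRNA export, stood at 244 and 178 CPM against 310.5 and 208 CPM, and its groups overlapped (log2 change 0.30 ± 0.27).

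Srsf1, the founding SR protein (ASF/SF2), stood at 742 and 708 CPM in shGFP cells versus 989.6 and 786 CPM after Ell2 depletion. Srsf2 (SC35), which marks nuclear speckles, stood at 405 and 405 CPM against 571 and 454 CPM. Both groups were apart, with Ell2-KD replicate 1 the highest library for each gene. The log2 changes of 0.29 ± 0.20 and 0.34 ± 0.21 (SE) did not pass (edgeR adjusted p = 0.924 and 0.906), and without Ell2-KD replicate 1 they were 0.12 and 0.17. Srsf9, the relative of Srsf1, stood at 143 and 153 against 126 and 196 CPM, with the controls between the depleted libraries.

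The Tra2 genes encode SR-like splicing activators that bind GAA-rich enhancers. Tra2a stood at 143 and 103 CPM in shGFP cells versus 185 and 156 CPM after Ell2 depletion, and its groups did not overlap. The log2 change was 0.47 ± 0.27 (SE; interval -0.12 to 1.06; edgeR adjusted p = 0.905), and it was 0.26 without shGFP replicate 2 and 0.74 without shGFP replicate 1. Tra2b stood at 109.6 and 130.4 CPM against 122 and 150.2 CPM, overlapping, with a log2 change of 0.18. Per kilobase, Tra2a lay 1.5-fold to 2.86-fold above Tra2b, and by the union of annotated exons 1.05-fold to 2.01-fold. Pseudogenes held 21.0% of the coding transcript windows of Tra2b and 0% of those of Tra2a, and the part of this in the ratio was not tested.

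Srsf6, Srsf4 and Srsf5 share a domain layout with a second, degenerate RNA recognition motif. Srsf6 stood at 606 and 491 CPM in shGFP cells versus 567 and 437 CPM after Ell2 depletion, with both groups interleaved (log2 change -0.13). Srsf4 stood at 37.3 and 33.9 CPM against 28.9 and 27.2 CPM, and Srsf5 at 57.1 and 68.5 against 69.4 and 70.0 CPM. Both pairs were apart, in opposite directions, with log2 changes of -0.34 ± 0.40 and 0.15 ± 0.30 (SE) that did not pass. Per kilobase Srsf6 lay 9.26-fold to 12.5-fold above Srsf4.

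Srsf11, which encodes a speckle protein of SR type, stood at 321 and 317 CPM in shGFP cells versus 303 and 255.9 CPM after Ell2 depletion, apart but by a log2 change of only -0.19 ± 0.22 (SE). The gene listed as Srsf12 stood at 149.8 and 119.7 CPM against 155 and 98.4 CPM. Sfrs18 (now Pnisr, an SR-related nuclear protein) stood at 52.6 and 52.4 against 38.9 and 63.5 CPM, and Srsf10, a splicing repressor when dephosphorylated, at 101 and 93.5 against 135 and 97.2 CPM. All 3 overlapped between groups.

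Ell2-KD replicate 1, the deepest library, was the highest of the 4 for 7 of 14 SR genes, beside 25.1% of all genes tested and 6 of 23 hnRNP genes. Those were Srsf7, Tra2a, Srsf2, Srsf1, Srsf3, Srsf10 and Srsf12. Its part in the SR values was not tested beyond leaving the library out, after which the SR median log2 change was 0.14. Ell2-KD replicate 2 was the highest for 10 of 23 hnRNP genes, beside 27.9%.

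The ratio of the highest to the lowest CPM had a median of 1.35 for hnRNP and 1.43 for SR genes, against 1.92 for all genes tested, which are less abundant. It reached 5.50 for Hnrnph3, 2.77 for Hnrnpm and 2.05 for Hnrnpa1. Per kilobase, the highest hnRNP levels were those of Hnrnpa2b1 (394 CPM per kilobase), Hnrnpab (392), Hnrnpu (213) and Hnrnpl (205). The highest SR levels were those of Srsf2 (242), Srsf1 (150.4), Srsf6 (149) and Srsf7 (144). Differences between neighbours in these orders were often small: Srsf1, Srsf6 and Srsf7 fell within one another's spread between libraries. With the union of all annotated exons as the length, the same 4 genes led each class, but Hnrnpab led the hnRNP genes at 334 and Hnrnpa2b1 came behind Hnrnpu at 103.

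Transcript annotation was a feature that the rule did not use. At least 1 transcript was annotated as a target of nonsense-mediated decay for 12 of 13 tested SR genes with an annotation (92.3%) and 13 of 23 hnRNP genes (56.5%), beside 29.4% of 10887 tested genes. SR and hnRNP genes also had more annotated transcripts, with medians of 8 and 10 against 5, and the part of that number in the share was not tested. Exons of 16 of 37 members overlap another annotated gene (13 hnRNP, 3 SR). The share over all tested genes was not computed, so this count is not read as a trait of the members. Among these are Srsf2 (with Mettl23 and Mfsd11), Srsf4, Ptbp1, Hnrnpm, Hnrnph3, Hnrnpu and Hnrnpl, and without a known strand setting their reads and those of the partner cannot be told apart.

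Genes that act with the members did not pass either. Over 5 lists with 92 tested genes, edgeR called 0 after adjustment and 5 at an unadjusted p under 0.05, and DESeq2 called 0 and 3. The unadjusted share of 5.43% lies near the 5.82% of all genes tested. Of 11 SR kinases and nuclear import receptors, 9 had a log2 change above 0 (median 0.15), beside 49.9% of all genes tested. Tnpo1, a nuclear import receptor that carries hnRNP A1, stood at 357 and 342 CPM in shGFP cells versus 605 and 503 CPM after Ell2 depletion (log2 change 0.66 ± 0.21 SE; edgeR adjusted p = 0.655). The SR kinase Prpf4b stood at 138 and 166 against 186 and 258 CPM, and Srpk2 at 242 and 153 against 261 and 217 CPM.

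Of 16 other hnRNP-type proteins 9 were positive and 7 negative, with a median of 0.03, and Tardbp, a repressor of cryptic exons, stood at 365 and 326 against 459 and 407 CPM. Of 24 other splicing regulators 11 were positive and 13 negative, with a median of -0.02. Mbnl1, a regulator of developmental exon choice, stood at 956 and 829 CPM in shGFP cells versus 1459 and 1309 CPM after Ell2 depletion. Its groups were apart, with a log2 difference of 0.63 ± 0.19 (SE, edgeR) and an adjusted p of 0.596 by edgeR. Celf1, which often opposes it, stood at 122 and 88.3 against 216 and 127 CPM. Of 26 core factors of splice site recognition 15 were positive and 11 negative (median 0.05). Sf3b3 stood at 355 and 433 against 500.3 and 628 CPM, and Snrnp200, the helicase that unwinds U4 from U6, at 420 and 483 against 355 and 311 CPM.

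Of 15 factors of nonsense-mediated decay, which removes transcripts with poison exons, 7 were positive and 8 negative, with a median of -0.03. Casc3, an exon junction protein, stood at 87.8 and 43.1 CPM against 29.3 and 41.3 CPM, and Upf3b at 15.5 and 12.7 against 2.84 and 9.07 CPM. Neither passed, with edgeR adjusted p of 0.853 and 0.906.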

How the data were processed

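SOLiD RNA-seq libraries of total RNA from 4 MPC11 cultures were used. Each library has its own deposited table, made by the authors, of counts by gene symbol. The counts were treated as raw because values are whole numbers with differing totals. The submitters' processing notes name DESeq 1.4.1, HTSeq 0.5.3, SAMtools 0.1.11 and the build mm9. The aligner, annotation, strand setting and treatment of reads with several matches were not given in the sources used here.

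Differential counts were computed with edgeR 4.0.16 (R 4.3.3) on the 4 libraries, modelling only the group: filterByExpr (minimum count 10, total 15; 11027 of 22722 genes kept), TMM, robust glmQLFit, glmQLFTest (two-sided), Benjamini-Hochberg over all genes tested, threshold 0.05. The standard error is the log2 change divided by the square root of F, and intervals are 95%. The common biological coefficient of variation was 0.43. The scripts were tested on simulated data. DESeq2 1.42.0, 2 other scalings, 2 other filters, the replicate block and leaving out each library were alternatives.

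Of the 38 member symbols, 37 matched RefSeq (GRCm38.p6), 5 of them through an older symbol. Lengths, overlaps, transcript classes and 31-base windows (both strands, exact) came from GENCODE M21 (GRCm38), another build than the authors'. Lengths and overlaps used its coordinates, and genes were joined to the counts by symbol only. Level per length is CPM over the longest coding transcript. The union of annotated exons, an alternative length, was chosen after seeing the data. Motif shares count 1 upstream window of 250 bases per gene. Hnrnpul2, Hnrpll, Rod1, Sfrs18 and the gene listed as Srsf12 had no window.

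Members and lists were chosen with earlier results of these data known. The rule for named genes gave values in every library for Ell2, Hnrpll, any member past the threshold, the paralogs of the hnRNP L, PTB and Tra2 families and, in each class, the 4 members with the smallest p in each direction and the 4 with the highest level per length. It allowed every other member and the 3 genes of each further list with the smallest p to be named. Which of those list genes are named, and the per-library values of other members and of Tnfrsf17, Ms4a1 and Pax5, were chosen after their values were seen. A further gene of the marker lists is not reported here.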

Additional observations from a re-analysis of the deposited data

How the results depend on the processing

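Under all 10 alternatives 0 hnRNP and 0 SR genes passed, and none of the 23 members followed by name did. Among these 23, 11 kept the sign of their log2 change in all 10 and 12 did not. The median of hnRNP genes ran from 0.09 to 0.16 with 1 library left out. The SR median ran from 0.0912 to 0.19 with 1 library left out and was 0.21 with no filter on low counts, where the median of all genes also moved, to 0.05. Intervals inside a 2-fold change numbered 18 to 23 of 37 with 1 library left out, fits in which 1 group holds only 1 library. With all 4 libraries kept, they numbered 28 (no filter on low counts) to 33 (replicate block), against 31 as reported. The part of the smaller number of libraries was not tested.

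The number of all genes past the threshold depended on the setting. It was 5 as reported, 2 with library totals as the only scaling, 2 under a filter of at least 5 CPM in at least 2 libraries, 22 without a filter, 34 with DESeq2, 28 with the replicate block, and 1 to 6 with 1 library left out (the 1 came without shGFP replicate 1, and again with Ell2-KD replicate 2 left out). The cause was not tested. The labels give both groups replicates 1 and 2 without saying that a number marks a shared day or batch. Deviations of libraries with the same number correlated at 0.31 across tested genes, but with 2 pairs the numbers were not taken to pair the samples. The block changed no call of a member, with medians of 0.10 for hnRNP and 0.17 for SR genes.

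Some log2 changes changed sign. Without a filter Hnrnpab was 0.0158 and Hnrnpd 0.0132. With 1 library left out the ranges were -0.14 to 0.35 for Hnrpll, -0.0874 to 0.22 for Hnrnpl, -0.23 to 0.43 for Ptbp2, -0.0829 to 0.26 for Rod1, -0.32 to 0.0491 for Srsf6, -0.45 to 0.20 for Srsf12, -0.60 to 0.19 for Hnrnph1, -0.18 to 0.14 for Hnrnpd, -0.80 to 1.66 for Hnrnph3, -0.0194 to 0.35 for Hnrnpu, -0.20 to 0.0948 for Hnrnpab and -0.17 to 0.34 for Hnrnpa2b1. The cause was not tested. Changes that kept their sign also moved, from 0.03 to 0.33 for Tra2b, 0.12 to 0.45 for Srsf1, 0.17 to 0.50 for Srsf2, -0.31 to -0.08 for Srsf11 and 0.06 to 0.23 for Ptbp1. Hnrnpa1, Hnrnpa3 and Hnrnph3 had at most 217 reads in a library, and Srsf13b, with at most 4, could not be tested at this depth.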
